A study of Mus musculus with 12 samples.

Results

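The p53 effector target genes are genes that the transcription factor p53 can switch on and whose products carry out its effects on the cell cycle, cell survival, DNA repair and metabolism. A list of 35 such genes was taken and each was read from the probe set annotated with exactly its symbol, using the brightest where there were several. Of the 35 genes, 33 had such a probe set and all 33 passed the filter on low signal, out of 17622 genes tested on the array. Aen, an exonuclease gene of cell death, and Steap3, a metal reductase gene, had none and are described apart. Pidd1 was annotated under its older symbol Lrdd.

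The data came from 12 MoGene 1.0 ST arrays (Affymetrix) of mouse embryonic stem cells (ESC), in 4 groups of 3. Bmpr1a-/- cells, by their labels null for the gene of a type I receptor of BMP ligands and marked with green fluorescent protein (GFP), and unmarked wild-type cells were grown in N2B27, a serum-free medium, for 3 days. In the mixed groups equal numbers of both cell types shared a dish and were sorted apart on GFP before RNA extraction, and in the separate groups each cell type grew alone. The sources used here do not say if the separate cultures were sorted too. The groups are therefore separate wild-type, mixed wild-type, separate Bmpr1a-/- and mixed Bmpr1a-/- cells, each without any other treatment named in the labels. The labels give 1 name for each cell type, so genotype, cell line and the GFP label go together in every array and cannot be told apart.

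Values are RMA signal, a linear intensity per probe set after background correction and quantile normalization, and differences are in log2 units, each with a standard error (SE). Signals of different genes come from different probes, so a brighter probe set does not show a more abundant transcript. Sums over marker genes are compared between groups only, and the brightest probe sets weigh most in them. Array medians of signal lay between 51.6 and 54.3, upper quartiles between 166.0 and 180.3, and pairs of arrays correlated between 0.9799 and 0.9981 over probe sets. Nothing in the labels says that replicates were separate cultures, so p-values measure the spread between these arrays. Bmpr1a itself gave 362 to 462 in the 6 Bmpr1a-/- arrays and 505 to 588 in the 6 wild-type arrays. Its probe set was thus lower but still well above the array medians in Bmpr1a-/- cells, and where its probes lie relative to the deleted part is not stated in these sources, so it does not show a loss of the gene. Of 10 pluripotency markers 9 were above the filter, while Nanog was below it or had no probe set of its own. The summed signal of the 9 was 6212 to 7077 in separate and 6825 to 7305 in mixed wild-type cells, and 9230 to 10146 in separate and 8479 to 8781 in mixed Bmpr1a-/- cells. Of 10 fibroblast markers 8 were above the filter, while Postn and Lum were below it or had no probe set of their own. In the same order the summed signal of the 8 was 1128 to 1207, 952.4 to 1094, 1012 to 1096 and 1215 to 1570, highest in mixed Bmpr1a-/- cells. The summed signal of 8 endoderm markers was 431.4 to 499.8, 410.9 to 463.4, 399.5 to 419.4 and 373.1 to 418.2, and that of 6 neural markers 810.8 to 1015, 852.2 to 1065, 833.2 to 850.3 and 739.4 to 790.2. Between the genotypes the pluripotency sums did not overlap in either kind of culture and were higher in Bmpr1a-/- cells. The fibroblast sums did not overlap either, being lower in Bmpr1a-/- cells in separate and higher in mixed culture. The endoderm sums were apart in separate culture only and the neural sums in mixed culture only, both lower in Bmpr1a-/- cells. Within the pluripotency and fibroblast lists single markers differed in both directions. For 5 trophoblast markers the sums of all groups overlapped, between 685 and 902.6. The part of these differences in the results that follow was not tested. In RNA from many cells, fewer cells that express a gene and less RNA per cell cannot be told apart.

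p53 is held at a low level in unstressed cells by the ubiquitin ligase Mdm2. When DNA damage or other stress stabilizes it, p53 binds paired copies of a short half-site in the DNA of its targets and raises their transcription. Embryonic stem cells express the p53 gene at a high level, and p53 is known to limit the survival of less fit cells when mouse pluripotent cells compete. Target genes differ in how far they depend on p53, since many also answer to other factors. Changes in their transcript level are no measurement of p53 protein, which was not measured here.

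The first question was how the effector genes differed between Bmpr1a-/- and wild-type cells that had each grown alone. In separate culture 15 of the 33 genes (45.5%) were higher in Bmpr1a-/- than in wild-type cells, 2 were lower (6.06%) and 16 did not pass, by limma at an adjusted p under 0.05 (Benjamini-Hochberg, over the whole table). Of all genes tested, 4.94% were higher and 6.3% lower. The members were chosen with earlier results of these data known, so these shares, and those in mixed culture below, are descriptions. The 15 were Plk2, Pml, Eda2r, Sfn, Pidd1, Plk3, Zmat3, Ephx1, Perp, Gtse1, Polk, Ckap2, Jag2, Slc19a2 and Trp53inp1, and the lower pair were Fdxr and Sesn1. The median difference of the 33 genes was 0.26, against -0.02 over all genes. The 3 arrays of each group did not overlap for 16 genes higher and 4 lower in Bmpr1a-/- cells, against 10.7% and 13.8% of all genes. The plot of every array lists the genes of each role in order of this difference, so the higher genes come first within a role.

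**Figure D1:**
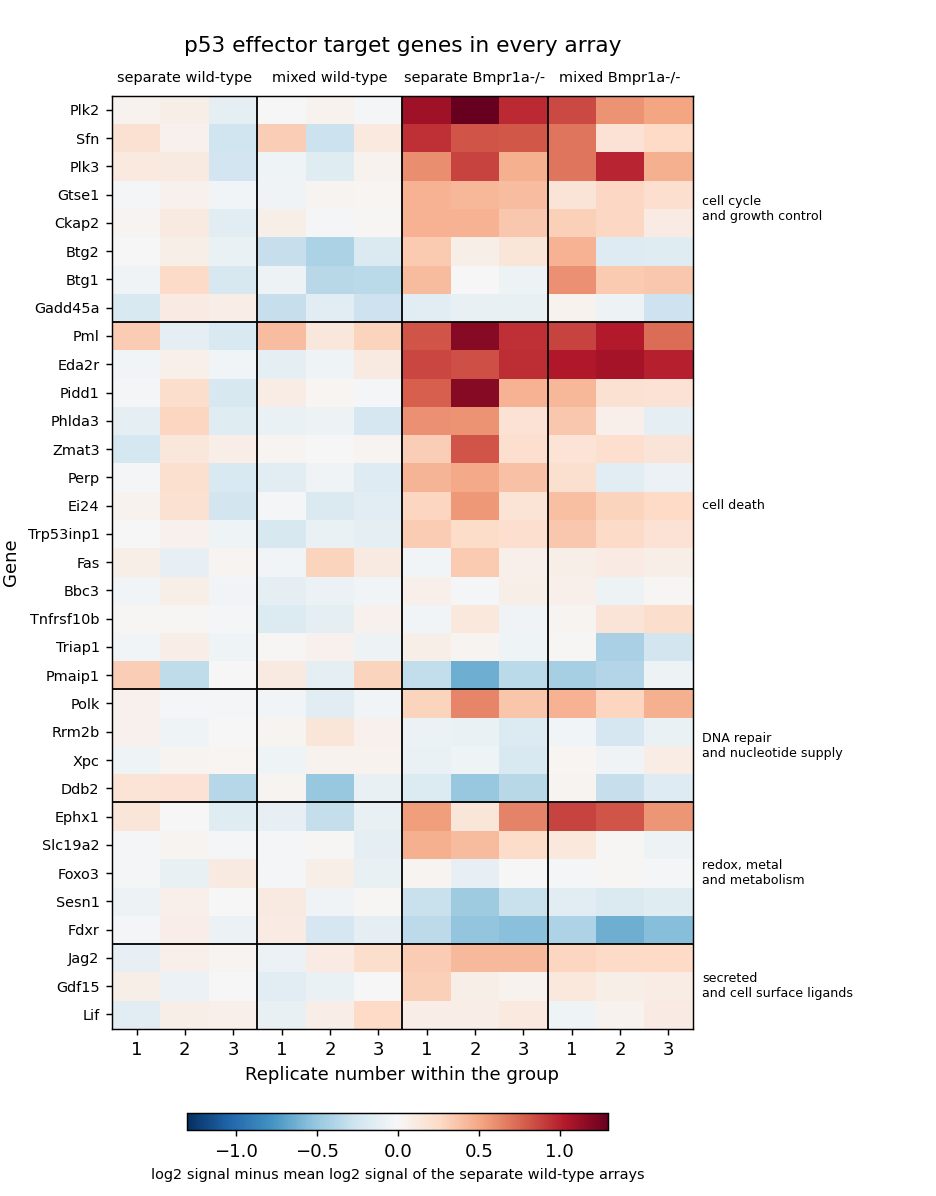
Heat map of the 33 tested p53 effector genes (rows, grouped by role) in the 12 arrays (columns, 3 replicates in each of 4 groups). Within a role the rows are ordered by the difference between genotypes in separate culture, highest first. Colour gives log2 signal minus the mean log2 signal of the 3 separate wild-type arrays; in separate Bmpr1a-/- arrays 15 genes were higher and 2 lower by the test, and Plk2, Pml and Eda2r lie above the separate wild-type mean in all 6 Bmpr1a-/- arrays.

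Of the 8 genes of cell cycle and growth control, 5 were higher in separate Bmpr1a-/- cells and none lower, with a median difference of 0.42. Plk2, a polo-like kinase of centriole duplication and of the stress response, gave signals of 441, 448 and 391 in separate wild-type and 917, 1065 and 834 in separate Bmpr1a-/- arrays. Every Bmpr1a-/- array was above every wild-type array. The difference of 1.13 (SE 0.11, adjusted p = 7.4e-05), or 2.19-fold, was the largest among the 33 genes. Sfn, the 14-3-3 sigma protein that restrains entry into mitosis, gave 123, 111 and 89.5 against 207, 188 and 187 (0.85, SE 0.16, adjusted p = 0.0057). The probe set used for Sfn here and in the other comparisons carries no RefSeq mRNA accession of Sfn. A dimmer probe set that does carry one differed by 0.74 (SE 0.14, adjusted p = 0.0051). Both probe sets of Sfn thus placed the Bmpr1a-/- group higher.

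Plk3, a polo-like kinase of the stress response, gave 83.6, 83.0 and 64.4 in separate wild-type and 116, 141 and 105 in separate Bmpr1a-/- arrays (0.65, SE 0.14, adjusted p = 0.013). The groups did not overlap, and the call was lost without separate Bmpr1a-/- replicate 2 (adjusted p = 0.063). Gtse1, which binds p53 in the G2 phase and moves it out of the nucleus, gave 451, 477 and 449 against 628, 619 and 604 (0.43, SE 0.06, adjusted p = 0.001). Ckap2, a protein of the mitotic spindle, gave 364, 385 and 320 against 487, 485 and 453 (0.42, SE 0.08, adjusted p = 0.0061). Both had tight, separate groups. Btg1, an antiproliferative gene and the brightest probe set of this role, gave 845, 1038 and 756 against 1162, 867 and 835 and its groups overlapped (0.11, SE 0.14, adjusted p = 0.72). Its relative Btg2 differed by 0.19 (SE 0.14) and Gadd45a, a gene of growth arrest and DNA damage, by -0.11 (SE 0.10), and neither passed.

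Of the 13 tested genes of cell death, 6 were higher in separate Bmpr1a-/- cells and none lower, with a median of 0.34. Pml, which builds the nuclear bodies where p53 is modified, gave 380, 277 and 265 in separate wild-type and 534, 689 and 587 in separate Bmpr1a-/- arrays. The groups were apart, with a difference of 0.98 (SE 0.14, adjusted p = 0.00098). Eda2r, a receptor of the tumour necrosis factor family that binds ectodysplasin A2, gave 372, 399 and 371 against 694, 678 and 738. The groups were far apart relative to the spread within them, with a difference of 0.89 (SE 0.07, adjusted p = 4.1e-05). Pidd1, a death domain protein that activates caspase-2, gave 148, 176 and 130 against 258, 341 and 205 (0.80, SE 0.16, adjusted p = 0.006). The Bmpr1a-/- values of Pidd1 were spread widely, and the lowest of them was still above the highest wild-type value.

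Zmat3, a zinc finger protein that binds RNA, gave 193, 251 and 241 in separate wild-type and 284, 400 and 263 in separate Bmpr1a-/- arrays (0.45, SE 0.14, adjusted p = 0.049). This call was lost without any one of 11 of the 12 arrays, at adjusted p of up to 0.16, and held only without separate Bmpr1a-/- replicate 3 (0.025). Perp, a desmosome protein linked to apoptosis, gave 198, 231 and 174 against 272, 281 and 260 (0.44, SE 0.11, adjusted p = 0.019). Leaving out separate wild-type replicate 1 or 3 or separate Bmpr1a-/- replicate 2 ended the call of Perp (adjusted p up to 0.075). Trp53inp1, a stress protein that promotes p53 activity and the brightest probe set of this role, gave 1547, 1610 and 1482 against 1940, 1824 and 1795. Its groups were apart and its difference small, at 0.26 (SE 0.07, adjusted p = 0.029). It was lost without separate wild-type replicate 1 or 3 or separate Bmpr1a-/- replicate 1 or 2 (adjusted p up to 0.085).

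The BH3-only genes of the list, Bbc3 and Pmaip1, did not pass in separate culture. Bbc3, which encodes Puma, gave 166, 179 and 166 in separate wild-type and 178, 167 and 179 in separate Bmpr1a-/- arrays (0.04, SE 0.06, adjusted p = 0.82). Pmaip1, which encodes Noxa, gave 210, 134 and 169 against 135, 108 and 132 (-0.43, SE 0.16, adjusted p = 0.11). The groups of both genes overlapped, and Pmaip1 passed only without separate wild-type replicate 2 among the arrays left out in turn (adjusted p = 0.042). Phlda3, a repressor of the kinase Akt, gave 302, 399 and 294 against 497, 493 and 375 (0.46, SE 0.15, adjusted p = 0.063). It passed without separate wild-type replicate 2, mixed Bmpr1a-/- replicate 1 or separate Bmpr1a-/- replicate 3 (down to 0.028). Ei24, a membrane protein of the endoplasmic reticulum, differed by 0.34 (SE 0.12, adjusted p = 0.085). In an alternative limma fit with the replicate number as a block, Pmaip1 was lower (adjusted p = 0.021). Phlda3 (0.012) and Ei24 (0.032) were higher in that fit, in which the calls over all genes rose from 1981 to 2854. The death receptor genes Fas (0.12, SE 0.10) and Tnfrsf10b (0.02, SE 0.08) and Triap1 (0.02, SE 0.10), a lipid transfer protein of mitochondria that inhibits apoptosis, did not pass.

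Of the 4 genes of DNA repair and nucleotide supply only Polk passed. Polk, a DNA polymerase that copies past damaged bases and the brightest probe set of this role, gave 170, 161 and 161 in separate wild-type and 200, 255 and 211 in separate Bmpr1a-/- arrays. The groups were apart, with a difference of 0.43 (SE 0.09, adjusted p = 0.0094). Ddb2, which recognises ultraviolet damage, gave 119, 120 and 81.1 against 92.7, 74.9 and 81.7 (-0.34, SE 0.17, adjusted p = 0.23). It overlapped because of 1 low wild-type array, separate wild-type replicate 3, and passed without that array (adjusted p = 0.044). Rrm2b, a subunit of ribonucleotide reductase, differed by -0.11 (SE 0.07), and Xpc, which recognises bulky DNA lesions, by -0.12 (SE 0.07). Their 3-array ranges were apart, lower in Bmpr1a-/- cells, and neither passed the test.

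Of the 5 tested genes of redox, metal and metabolism, 2 were higher and 2 lower. Slc19a2, a thiamine transporter and the brightest probe set of this role, gave 397, 415 and 400 in separate wild-type and 557, 538 and 477 in separate Bmpr1a-/- arrays (0.37, SE 0.08, adjusted p = 0.0087). Ephx1, an epoxide hydrolase that detoxifies reactive compounds, gave 78.5, 70.9 and 63.2 against 103, 78.5 and 110 (0.44, SE 0.13, adjusted p = 0.043). Slc19a2 was clearly apart, while for Ephx1 the highest wild-type and the lowest Bmpr1a-/- value met at 78.5 after rounding. The call of Ephx1 was lost without any one of 7 arrays, namely mixed wild-type replicates 1 and 3, separate wild-type replicates 2 and 3, mixed Bmpr1a-/- replicate 2 and separate Bmpr1a-/- replicates 1 and 3 (adjusted p up to 0.15).

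Fdxr, the ferredoxin reductase that feeds electrons to mitochondrial iron-sulphur cluster and steroid synthesis, gave 104, 111 and 99.6 in separate wild-type and 82.9, 73.2 and 72.1 in separate Bmpr1a-/- arrays (-0.47, SE 0.10, adjusted p = 0.0082). Sesn1, a sestrin that restrains the growth kinase complex mTORC1, gave 114, 125 and 120 against 97.9, 86.7 and 97.5 (-0.35, SE 0.07, adjusted p = 0.0086). Both were below every wild-type array in every Bmpr1a-/- array, opposite to most of the genes that passed. Foxo3, a forkhead transcription factor of stress resistance, was close to the filter under its exact symbol, at 24.7 to 28.8 over all arrays, and differed by -0.02 (SE 0.07). A brighter probe set under the older symbol Foxo3a, with a RefSeq accession of Foxo3, gave 281, 290 and 331 against 376, 374 and 413 (0.37, SE 0.11, adjusted p = 0.059). The other Foxo3a probe set, without such an accession, was higher by 0.38 (SE 0.11, adjusted p = 0.044). The probe sets of Foxo3 thus differed in whether they passed the test.

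Of the 3 genes of secreted and cell surface ligands only Jag2 passed. Jag2, a Notch ligand and the brightest of the probe sets used for this role, gave 153, 172 and 169 in separate wild-type and 207, 221 and 220 in separate Bmpr1a-/- arrays (0.39, SE 0.08, adjusted p = 0.0078). Its groups were apart. A brighter probe set, annotated with Jag2 and another symbol, was not tested. It gave 314, 360 and 338 against 388, 348 and 365, with overlapping groups. In mixed culture its mean was 333 in wild-type and 283 in Bmpr1a-/- cells, opposite in direction to the probe set used. Gdf15, a stress-induced hormone of the TGF-beta superfamily, differed by 0.14 (SE 0.08) and Lif, the cytokine that maintains mouse ESC, by 0.10 (SE 0.09). Lif had separate 3-array ranges without passing. Of the genes read by RefSeq accession only, Aen under the older symbol Isg20l1 gave 277, 315 and 258 against 329, 346 and 266 (0.14, SE 0.12, adjusted p = 0.56). Steap3, on a probe set annotated Steap3 and Steap1, differed by -0.07 (SE 0.09, adjusted p = 0.72).

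To show the DNA next to which p53 could act, promoter windows of the genes were read from the RefSeq table of assembly GRCm38.p6, from 250 bases before to 50 bases after each annotated start. The windows were searched on both strands for exact matches to the 10-base p53 half-site consensus, which reads the same on either strand. Of the 35 genes 27 had a window, and 8 of them (29.6%) held a match, against 9.55% of all 27025 genes with a window. Counted over windows, 9 of the 37 windows held one, against 8.36% of all windows. The table held no entry for Trp53inp1, Pmaip1, Perp, Zmat3, Rrm2b, Ddb2, Xpc or Tnfrsf10b. Matches lay in Aen, Ckap2, Ei24, Gadd45a, Gtse1, Pml, Polk and Sesn1, with both windows of Aen sharing 1 match. Gtse1, Polk and Sesn1 each also had another window without a match. Such sites are part of why genes are listed as p53 targets, so these shares are a description. Of the 12 genes higher in separate Bmpr1a-/- cells that had a window, 4 held a match, of the 2 lower genes 1 did (Sesn1), and of the 11 that did not pass 2 did. A match is a run of letters and not a shown binding site, and a window without one says nothing of sites elsewhere in the gene.

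The gene with the largest difference, Plk2, had no match in its window, while Pml, Ckap2 and Gtse1 each had 1, Gtse1 in only 1 of its windows. Their upstream sequences follow, each 5′ to 3′ on the strand of the gene and ending at the base before the annotated start, except Gtse1, for which the last 60 bases before the start and the first 20 after it are given because its match begins at base 10 of the transcript. Capitals mark the half-site match. The stretches are chr13:110394794-110395043 on the plus strand for Plk2, chr9:58249787-58250036 on the minus strand for Pml, chr8:22185820-22186069 on the minus strand for Ckap2 and chr15:85859886-85859965 on the plus strand for Gtse1.
Plk2: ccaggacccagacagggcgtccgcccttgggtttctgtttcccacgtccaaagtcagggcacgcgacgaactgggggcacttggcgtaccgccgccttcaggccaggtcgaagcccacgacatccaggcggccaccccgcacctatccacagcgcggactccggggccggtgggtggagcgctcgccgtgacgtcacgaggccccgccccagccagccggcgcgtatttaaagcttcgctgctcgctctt
Pml: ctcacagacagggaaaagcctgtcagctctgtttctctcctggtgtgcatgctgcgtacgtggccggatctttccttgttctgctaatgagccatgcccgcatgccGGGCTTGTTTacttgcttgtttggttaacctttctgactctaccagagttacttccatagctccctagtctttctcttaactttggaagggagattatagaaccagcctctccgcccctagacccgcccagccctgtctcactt
Ckap2: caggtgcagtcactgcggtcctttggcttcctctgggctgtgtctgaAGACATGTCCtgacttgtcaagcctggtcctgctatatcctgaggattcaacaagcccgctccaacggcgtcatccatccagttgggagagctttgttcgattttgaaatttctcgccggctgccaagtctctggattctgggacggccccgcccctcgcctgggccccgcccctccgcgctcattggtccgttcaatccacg
Gtse1: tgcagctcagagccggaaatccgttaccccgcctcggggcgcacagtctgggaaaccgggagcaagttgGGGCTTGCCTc

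The match of Pml began 144 bases and that of Ckap2 203 bases before the start. Pml and Gtse1 were higher in Bmpr1a-/- cells in both kinds of culture, as was Plk2, which has no match in these letters.

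The next comparison asked the same of cells that had shared a dish. In mixed culture 10 of the 33 genes (30.3%) were higher in Bmpr1a-/- than in wild-type cells and 1 (3.03%) was lower, against 6.34% and 10.1% of all genes. The median difference was 0.18, against -0.02 over all genes. The 3-array ranges were apart for 16 genes higher and 3 lower, against 12.5% and 20.2% of all genes. Of the 15 genes higher in separate culture, 8 were also higher in mixed culture (53.3%), and these made up 80% of the 10 higher in mixed culture: Eda2r, Ephx1, Gtse1, Plk2, Plk3, Pml, Polk and Trp53inp1. Over all genes, 473 were higher in both, 54.4% of those in separate and 42.3% of those in mixed culture. The genotype comparisons take their group means from different arrays of the same cell types. They share the same estimate of the spread of each gene, made from all 12 arrays, so their calls are not independent. For the same reason a call can be lost without an array outside its comparison. Fdxr was lower in both.

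**Figure D2:**
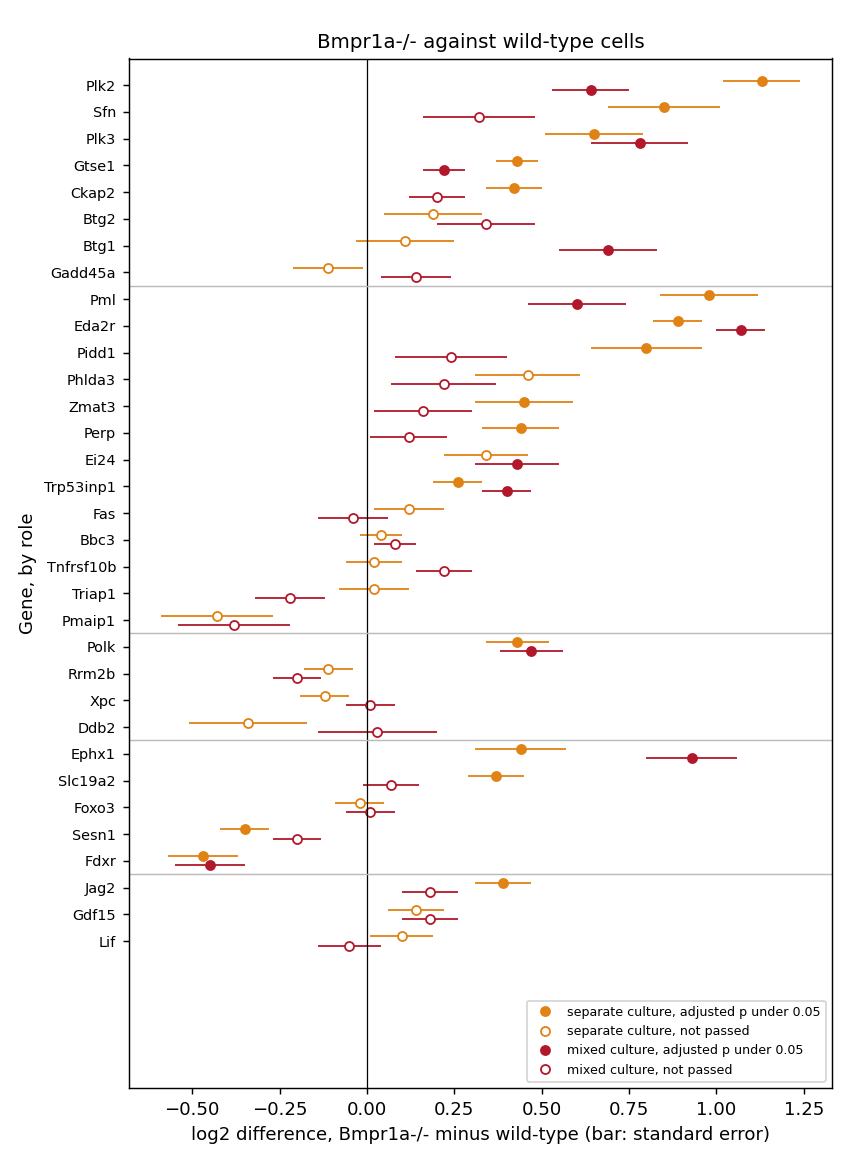
Log2 difference between Bmpr1a-/- and wild-type cells for each tested gene, by role, in separate culture (orange) and mixed culture (red). Points are estimates over 3 arrays a group, bars are standard errors, and filled points passed at adjusted p under 0.05; the difference of Plk2 was 1.13 in separate and 0.64 in mixed culture, that of Ephx1 0.44 and 0.93.

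Eda2r had the largest difference in mixed culture, with signals of 349, 365 and 412 in mixed wild-type and 784, 806 and 766 in mixed Bmpr1a-/- arrays (1.07, SE 0.07, adjusted p = 3e-06). Ephx1 gave 65.4, 56.8 and 66.2 against 130, 124 and 105 (0.93, SE 0.13, adjusted p = 0.00038). Plk3 gave 73.8, 68.5 and 78.7 against 124, 152 and 105 (0.78, SE 0.14, adjusted p = 0.0028). All 3 genes had groups far apart, and their estimates were above those in separate culture. Btg1 gave 833, 677 and 686 against 1318, 1103 and 1114 (0.69, SE 0.14, adjusted p = 0.0056), and was higher here while its separate groups overlapped. Plk2 gave 427, 439 and 419 against 773, 639 and 607 (0.64, SE 0.11, adjusted p = 0.0012). Its groups were apart in mixed culture too.

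Pml gave 401, 336 and 370 in mixed wild-type and 558, 620 and 500 in mixed Bmpr1a-/- arrays (0.60, SE 0.14, adjusted p = 0.01), a call lost without mixed Bmpr1a-/- replicate 2 (adjusted p = 0.052). Polk gave 160, 148 and 160 against 225, 199 and 226 (0.47, SE 0.09, adjusted p = 0.0033). Both sets of groups were apart. Ei24 gave 482, 428 and 441 against 639, 598 and 583 (0.43, SE 0.12, adjusted p = 0.022), and was lost without mixed wild-type replicate 2 or 3 or mixed Bmpr1a-/- replicate 1 or 2 (adjusted p up to 0.080). Trp53inp1 gave 1337, 1459 and 1421 against 1975, 1841 and 1755 (0.40, SE 0.07, adjusted p = 0.0017). Its lowest Bmpr1a-/- array was well above its highest wild-type array.

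Gtse1 gave 443, 471 and 467 in mixed wild-type and 516, 554 and 533 in mixed Bmpr1a-/- arrays (0.22, SE 0.06, adjusted p = 0.028). The groups were apart by a narrow margin relative to separate culture, and the call was lost without any one of the 3 mixed wild-type arrays or mixed Bmpr1a-/- replicates 2 and 3 (adjusted p up to 0.12). Fdxr gave 113, 90.3 and 96.5 against 79.5, 67.3 and 71.6 (-0.45, SE 0.10, adjusted p = 0.006), all Bmpr1a-/- values below all wild-type values. The probe set of Foxo3a with a RefSeq accession gave 251, 328 and 314 against 375, 482 and 441 (0.54, SE 0.11, adjusted p = 0.0061). It was apart between the genotypes, unlike the dim probe set of the exact symbol at 0.01 (SE 0.07).

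The other genes that differed in separate culture did not pass in mixed culture. Sfn gave 133, 87.8 and 117 in mixed wild-type and 173, 122 and 128 in mixed Bmpr1a-/- arrays, and its groups overlapped (0.32, SE 0.16, adjusted p = 0.23). Pidd1 gave 161, 153 and 148 against 202, 172 and 171 with groups apart (0.24, SE 0.16, adjusted p = 0.39). Jag2 (0.18, adjusted p = 0.17), Ckap2 (0.20, adjusted p = 0.12), Zmat3 (0.16, adjusted p = 0.53), Perp (0.12, adjusted p = 0.59), Slc19a2 (0.07, adjusted p = 0.66) and Sesn1 (-0.20, adjusted p = 0.080) also missed the threshold by limma. Passing in one kind of culture only does not show that the differences were unequal, which the interaction below tests.

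Pmaip1 gave 182, 155 and 206 in mixed wild-type and 125, 129 and 161 in mixed Bmpr1a-/- arrays (-0.38, SE 0.16, adjusted p = 0.13). With the replicate number as a block it was lower, at adjusted p = 0.028, and no other gene of the list changed its call in this comparison under the block. Btg2 gave 256, 236 and 275 against 430, 279 and 282 (0.34, SE 0.14, adjusted p = 0.13), groups apart through a narrow gap and 1 high array. Tnfrsf10b differed by 0.22 (SE 0.08, adjusted p = 0.081) and Triap1 by -0.22 (SE 0.10, adjusted p = 0.16). Tnfrsf10b passed without mixed wild-type replicate 3 (adjusted p = 0.047) and Triap1 without mixed Bmpr1a-/- replicate 1 (adjusted p = 0.020). Gdf15 (0.18) and Rrm2b (-0.20) had ranges apart, and Bbc3 (0.08), Phlda3 (0.22), Gadd45a (0.14), Ddb2 (0.03), Xpc (0.01), Fas (-0.04) and Lif (-0.05) did not pass either.

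**Figure D3:**
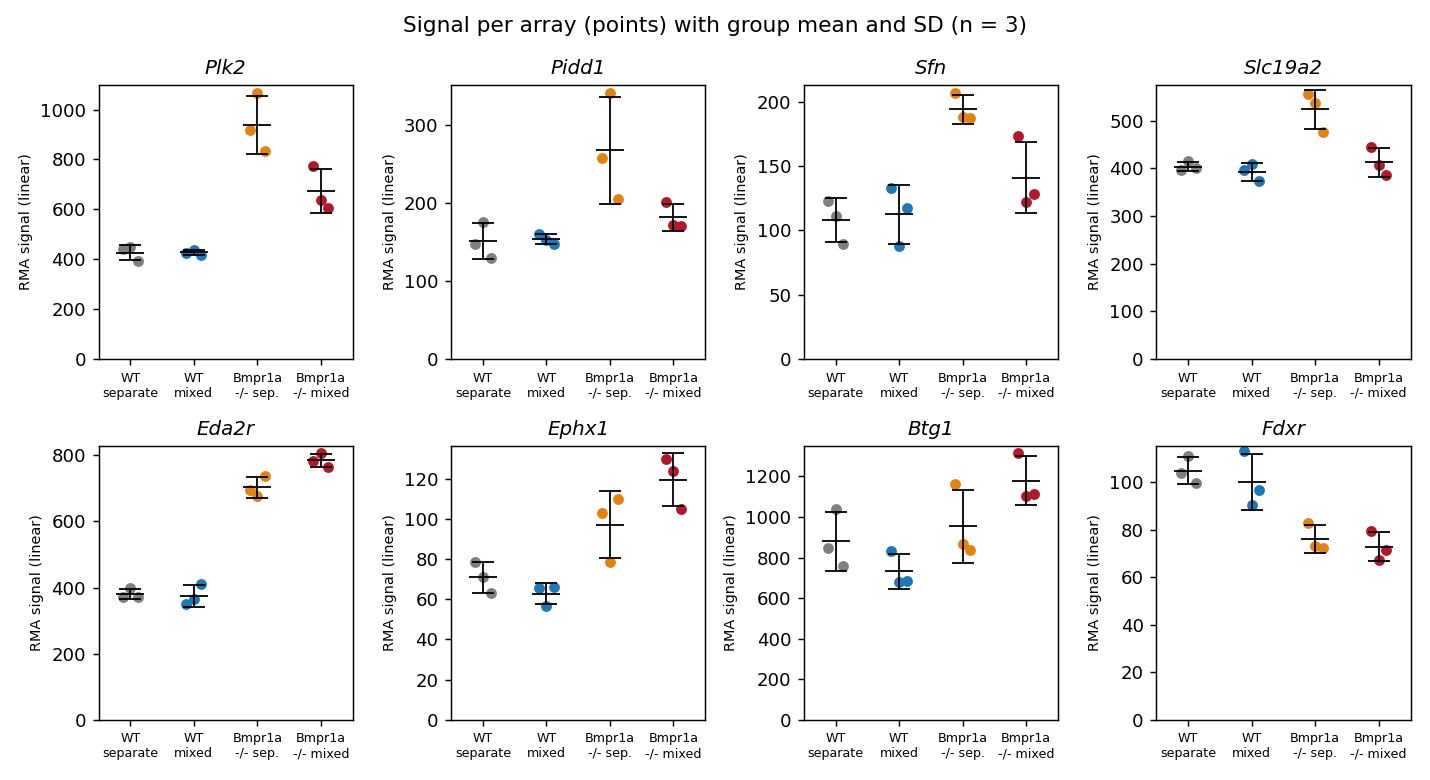
RMA signal (linear, from 0) of 8 genes in every array (points), with the mean and SD of each group of 3 (bars). Plk2, Pidd1, Sfn and Slc19a2 lay lower in mixed than in separate Bmpr1a-/- arrays, while Eda2r, Ephx1 and Btg1 had higher means in mixed Bmpr1a-/- arrays and Fdxr was low in both Bmpr1a-/- groups.

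The co-culture comparison asked how Bmpr1a-/- cells changed when they shared the dish with wild-type cells. In mixed against separate Bmpr1a-/- cells none of the 33 genes was higher and 2 were lower, Plk2 and Slc19a2, against 0.783% higher and 0.794% lower among all genes. The median change was -0.03, against -0.02 over all genes, and 13 of the 33 genes (39.4%) had an unadjusted p under 0.05 by limma, against 14.9% of all genes. Ranges of 3 arrays were apart for 3 genes higher and 8 lower, against 7.38% and 10.6% of all genes. The higher were Eda2r (0.16), Sesn1 (0.19) and Xpc (0.14), and the lower Plk2 (-0.48), Perp (-0.44), Sfn (-0.48), Pidd1 (-0.53), Slc19a2 (-0.34), Gtse1 (-0.21), Ckap2 (-0.19) and Jag2 (-0.13). Same-numbered arrays of both Bmpr1a-/- groups deviated together. With the replicate number as a block, fitted as a common effect over all 4 groups, 5 genes were lower: Plk2, Slc19a2, Perp, Pidd1 and Sfn. The count of all genes called rose from 278 to 877 under the block.

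Plk2 went from 917, 1065 and 834 in separate to 773, 639 and 607 in mixed Bmpr1a-/- arrays, a fall of 1.40-fold (-0.48, SE 0.11, adjusted p = 0.041). The groups did not overlap. Slc19a2 went from 557, 538 and 477 to 445, 408 and 386 (-0.34, SE 0.08, adjusted p = 0.048), and its groups were apart as well. Neither call was stable to the arrays used. Plk2 was lost without any one of 8 arrays, which were the mixed wild-type arrays, separate wild-type replicate 2, mixed Bmpr1a-/- replicates 2 and 3 and separate Bmpr1a-/- replicates 1 and 2 (adjusted p up to 0.18). Slc19a2 was lost without any array except mixed Bmpr1a-/- replicate 1 and separate Bmpr1a-/- replicate 3 (adjusted p up to 0.19).

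Pidd1 had the largest change, from 258, 341 and 205 in separate to 202, 172 and 171 in mixed Bmpr1a-/- arrays (-0.53, SE 0.16, adjusted p = 0.11; 0.029 with the replicate block). Sfn went from 207, 188 and 187 to 173, 122 and 128 (-0.48, SE 0.16, adjusted p = 0.17; 0.033 with the block). The other Sfn probe set, with the mRNA accession, went from 161, 127 and 150 to 133, 113 and 115 with overlapping groups (-0.27, SE 0.14, adjusted p = 0.40). Perp went from 272, 281 and 260 to 230, 182 and 190 (-0.44, SE 0.11, adjusted p = 0.061; 0.024 with the block). On the probe sets used, all 3 genes had every mixed array below every separate array. Perp passed without separate wild-type replicate 2 or 3 or mixed Bmpr1a-/- replicate 1 (adjusted p down to 0.032), and Pidd1 without separate Bmpr1a-/- replicate 3 (0.029). Gtse1 at -0.21 (SE 0.06, adjusted p = 0.11) and Phlda3 at -0.36 (SE 0.15, adjusted p = 0.26) did not pass.

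Other genes had estimates above or near 0. Btg1 was at 0.32 (SE 0.14, adjusted p = 0.33), from 1162, 867 and 835 to 1318, 1103 and 1114. Ephx1 was at 0.31 (SE 0.13, adjusted p = 0.27), from 103, 78.5 and 110 to 130, 124 and 105. Their groups overlapped. Eda2r was at 0.16 (SE 0.07, adjusted p = 0.33), with groups apart at 694, 678 and 738 against 784, 806 and 766. Trp53inp1 was at 0.00 (SE 0.07) and Bbc3 at -0.03 (SE 0.06). None of these genes passed the test, and the plot of co-culture changes shows the spread of the estimates.

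**Figure D4:**
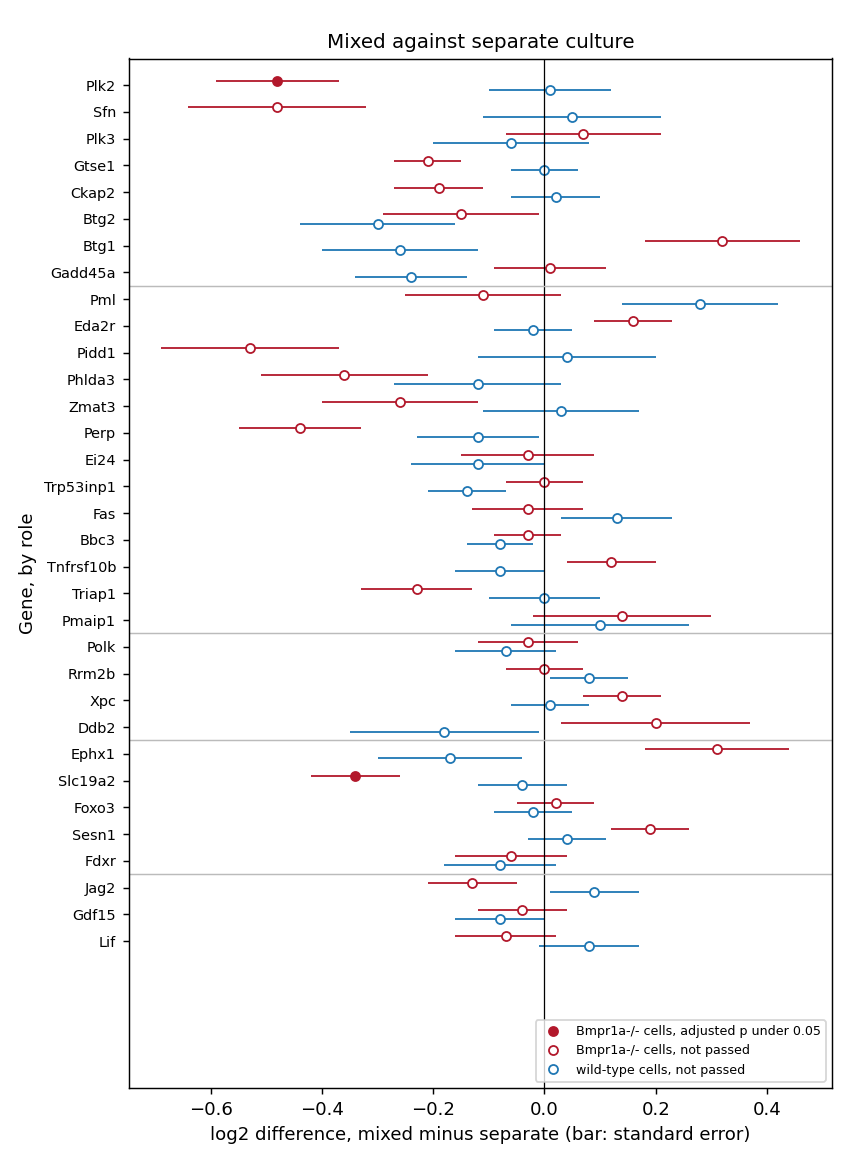
Log2 change from separate to mixed culture for each tested gene, by role, in Bmpr1a-/- cells (red) and wild-type cells (blue). Points are estimates over 3 arrays a group, bars are standard errors, and filled points passed at adjusted p under 0.05; only Plk2 (-0.48) and Slc19a2 (-0.34) in Bmpr1a-/- cells are filled.

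Wild-type cells were compared in the same way. In mixed against separate wild-type cells limma called none of the 33 genes and none of all genes tested (0% higher and 0% lower). At an unadjusted p under 0.05 there were 515 of all genes and 1 of the 33, Gadd45a (-0.24, SE 0.10). The median change of the 33 genes was -0.02. Ranges were apart for no gene higher and 4 lower, against 3.37% and 3.61% of all genes: Btg2 (-0.30), Trp53inp1 (-0.14), Bbc3 (-0.08) and Polk (-0.07). Btg2, a gene of growth arrest, had the largest change, from 316, 332 and 296 to 256, 236 and 275 (-0.30, SE 0.14, adjusted p = 1.0). Pml was at 0.28 (SE 0.14) and Btg1 at -0.26 (SE 0.14), both with overlapping groups. Plk2 (0.01), Slc19a2 (-0.04), Sfn (0.05), Pidd1 (0.04) and Perp (-0.12) stayed within 0.12 of 0 on the log2 scale.

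The interaction tested whether co-culture changed a gene unequally in both genotypes, which is the same as whether the genotype difference differed between the kinds of culture. Limma called none of the 33 genes, against 0.295% of all genes with a higher and 0.375% with a lower change in Bmpr1a-/- cells. At an unadjusted p under 0.05 there were 7 of the 33 (21.2%) and 1994 of all genes (11.3%). Of the 7, Pidd1 (-0.57, SE 0.22, adjusted p = 0.32), Sfn (-0.53, SE 0.23, adjusted p = 0.41), Plk2 (-0.49, SE 0.15, adjusted p = 0.19), Slc19a2 (-0.30, SE 0.11) and Gtse1 (-0.21, SE 0.09) had a lower change in Bmpr1a-/- cells. Btg1 (0.57, SE 0.20, adjusted p = 0.27) and Ephx1 (0.48, SE 0.18, adjusted p = 0.30) had a higher one. Of the 15 genes higher in separate Bmpr1a-/- cells, 10 had a smaller genotype difference in mixed culture, a count given as a description because the 15 were chosen on the separate arrays.

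The regulators and other genes of the p53 pathway gave the setting of these effectors, and 37 of 39 listed genes were tested. In separate culture 9 were higher and 2 lower in Bmpr1a-/- cells (24.3% and 5.41%, with a median of 0.10), against 4.94% and 6.3% of all genes. The share of lower genes was thus near that of all genes in the fit without the replicate block. Mdm2, the ligase that degrades p53 and is itself a p53 target, gave 570, 584 and 478 in separate wild-type and 926, 1120 and 797 in separate Bmpr1a-/- arrays (0.79, SE 0.12, adjusted p = 0.0019). Cdkn1a, the p21 inhibitor of cyclin-dependent kinases, gave 326, 378 and 356 against 508, 575 and 465 (0.54, SE 0.11, adjusted p = 0.0064). Both were apart, like most effectors that passed. The p53 gene itself, Trp53, gave 889, 1148 and 913 against 1024, 1131 and 997, and its groups overlapped (0.10, SE 0.09, adjusted p = 0.57). Ccng1, a cyclin G target of p53, gave 3253, 3169 and 3317 against 3009, 3283 and 2993 and overlapped too (-0.07, SE 0.06, adjusted p = 0.57).

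The others higher were the p53 relative Trp73 (0.57), the sestrin Sesn2 (0.56), the p53 inhibitor Mdm4 (0.51), the death effector Bax (0.37), the damage kinase Atm (0.34), the ubiquitin protease Usp7 (0.33) and the apoptosome gene Apaf1 (0.32). The lower pair were the initiator caspase Casp8 (-0.73) and the mitotic phosphatase Cdc25c (-0.36). With the replicate block in limma, Ppm1d (adjusted p = 0.024), Chek1 (0.022), Trp53bp2 (0.045) and Thbs1 (0.012) were also lower in separate Bmpr1a-/- cells. The calls over all genes rose under the block as well. Of the sestrin genes Sesn1 was lower and Sesn2 higher in the same cells. The calls of Mdm4, Usp7, Atm, Sesn2, Bax and Apaf1 were each lost without at least 1 of the separate wild-type arrays or separate Bmpr1a-/- replicates 2 and 3 (adjusted p up to 0.12). In mixed culture 5 of the 37 (13.5%, against 6.34% of all genes) were higher, namely Mdm4 (0.68), Mdm2 (0.43, adjusted p = 0.033), Trp73 (0.37), Cdkn2a (0.36) and Usp7 (0.27). The lower genes (16.2%, against 10.1% of all genes) included Casp8 (-0.87), Prkab1 (-0.41), Ppm1d (-0.38), Trp53bp2 (-0.34) and Kat5 (-0.23). The call of Mdm2 was lost without any one of the mixed wild-type arrays or mixed Bmpr1a-/- replicate 1 or 2 (adjusted p up to 0.12). Of the other named genes only Mdm4, Casp8 and Prkab1 kept their call whichever array was left out, and that of Ppm1d went up to adjusted p = 0.19. With the replicate block Rchy1 (0.013), Apaf1 (0.040) and Ccnb1 (0.031) were also higher and Chek1 (0.032) lower, by adjusted p. Cdkn1a did not differ beyond the spread there, at 313, 303 and 362 against 380, 326 and 303 (0.04, SE 0.11, adjusted p = 0.88).

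In mixed against separate Bmpr1a-/- cells only Cdkn1a of the 37 passed (2.7% lower, against 0.794% of all genes). It was lower by -0.62 (SE 0.11, adjusted p = 0.016). Its mixed arrays of 380, 326 and 303 lay below the separate arrays of 508, 575 and 465, and the call was lost without mixed Bmpr1a-/- replicate 2 or 3 or separate Bmpr1a-/- replicate 2 (adjusted p up to 0.080). Mdm2 changed by -0.40 (SE 0.12, adjusted p = 0.14; 0.033 with the replicate block), with mixed arrays of 814, 701 and 630. Sesn2 (adjusted p = 0.025), Prkab1 (0.023) and Ppm1d (0.031), a phosphatase gene of the p53 loop, were also lower with the block. Trp53 was at -0.24 (SE 0.09, adjusted p = 0.23) and Ccng1 at -0.13 (SE 0.06, adjusted p = 0.33). By limma without the block none of the 37 passed in wild-type cells or in the interaction. In wild-type cells none had an unadjusted p under 0.05, against 2.92% of all genes. There were 4 in the interaction (10.8%, against 11.3% of all genes). In the interaction Prkab1, a subunit gene of the energy sensor AMPK, was at -0.49 (SE 0.11, adjusted p = 0.070), lower with the block (adjusted p = 0.032) or without separate wild-type replicate 2 (0.042).

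Because the mixed cells are known to have been sorted, 18 immediate early genes of handling and growth signals were read beside the effectors. In mixed against separate Bmpr1a-/- cells 1 of them (5.56%, against 0.794% of all genes) was lower, Myc (-1.13, SE 0.15, adjusted p = 0.0049). None was higher, against 0.783% of all genes. With the replicate block Fos (-0.58, adjusted p = 0.040) and Fosb (-0.73, adjusted p = 0.047) were lower too. None passed in wild-type cells. In the interaction Myc was lower (-1.33, SE 0.22, adjusted p = 0.020), which made 5.56% of the 18 against 0.375% of all genes. This call was lost without mixed wild-type replicate 1 or 2, separate wild-type replicate 1 or mixed Bmpr1a-/- replicate 3 (adjusted p up to 0.067). In separate culture 3 of the 18 (16.7%, against 4.94% of all genes) were higher in Bmpr1a-/- cells, Myc (1.17), Ier2 (0.42) and Atf3 (0.36). The call of Ier2 was lost without any one of 8 arrays and held only without mixed wild-type replicates 1 or 2, separate wild-type replicate 1 or mixed Bmpr1a-/- replicate 1 (adjusted p up to 0.15). That of Atf3 was lost without separate wild-type replicate 1 or 2 or separate Bmpr1a-/- replicate 1 or 3 (up to 0.11). In mixed culture Socs3 was lower (-0.48; 1 of 18, or 5.56%, against 10.1% of all genes) and, with the block, Dusp1 higher (0.45, adjusted p = 0.0056). Socs3 was lost without mixed wild-type replicate 2 or 3 or mixed Bmpr1a-/- replicate 1 or 2 (adjusted p up to 0.14). The part of sorting and handling in the changes of Plk2, Plk3, Btg1 and Btg2, which also answer to growth signals and stress, was not tested.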

How the data were processed

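RNA of 12 samples was hybridised to Affymetrix MoGene 1.0 ST arrays. The arrays were normalized by RMA in Affymetrix Expression Console 1.2, per the submitters' processing notes, at the core level with quantile normalization, per the file headers, which also name 1 array the authors left out for a file problem. The deposited series table holds log2 values centred per probe set on a median. A deposited workbook sheet holds linear intensity values, whose log2 was the series table plus a constant for each probe set (largest spread 2.2e-06), so it was used as RMA signal.

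Of 28815 probe sets, 22700 had 1 gene symbol, 2478 several and 3637 none. Symbols were updated through a RefSeq table of GRCm38.p6 (16822 current, 3899 updated, 1979 kept). Probe sets whose mean signal fell below percentile 20 (25.4) were left out and the brightest probe set stood for each gene, which left 17622 genes. Group means were fitted to log2 signal of every array (limma 3.58.1, R 4.3.3) (8 residual degrees of freedom, a median of 12.7 after moderation). The call threshold was a two-sided Benjamini-Hochberg adjusted p of 0.05 over all genes, and the fit was tested on simulated data. The number of arrays limits the precision.

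Same-numbered arrays deviated together between separate and mixed Bmpr1a-/- cells (correlations of 0.39, 0.15 and 0.36) and between both mixed groups (0.64, 0.38 and 0.42), so there the numbers pair the arrays, and the headers name experiments 1 to 3. The fit with this block is an alternative. Its effect of each replicate number is common to all 4 groups, though not all groups deviated together. Replicate 2 correlated at -0.10 between separate and mixed wild-type cells and at -0.24 between separate wild-type and mixed Bmpr1a-/- cells. Full values were given for every gene of the list that passed in any comparison, the 3 largest other changes per comparison and the brightest gene of each role. The members and lists were chosen with earlier results of these data known. Alternatives changed the filter, probe set choice, scaling, variance model, arrays fitted and arrays left out, and reading genes by RefSeq accession was added after seeing the data.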

Additional observations from a re-analysis of the deposited data

How the results depend on the processing

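In separate culture the number of effector genes that differed between genotypes, 17, lay between 14 and 20 under the alternatives and between 13 and 17 when each array was left out in turn, and 12 genes kept their call in every one of these fits. In mixed culture the number, 11, lay between 10 and 14 and between 8 and 11, and 8 genes kept their call. The counts in wild-type cells and for the interaction were 0 in every fit. In mixed against separate Bmpr1a-/- cells the 2 calls became 0 with no filter on low signal (206 of all genes called), 0 with only the arrays compared (46 of all genes called, with fewer degrees of freedom), 1 with the filter at the median signal, 1 with a trended and robust variance and 5 with the replicate block. They were between 0 and 3 when each array was left out, and neither call held in every fit. The block raised the calls over all genes from 278 to 877. It gave 20 effector genes in separate culture, where the calls over all genes rose from 1981 to 2854. In mixed culture it gave 12, and the calls over all genes rose from 2903 to 3814. In the separate comparison the correlations between same-numbered arrays were 0.06, 0.05 and 0.34, and those between other arrays went up to 0.26. They do not show whether the numbers pair these arrays. No called direction of a single effector gene reversed in any fit. Counts over all genes fell from 1981 to 1106 without separate wild-type replicate 2, to 1083 without separate Bmpr1a-/- replicate 2 and to 1170 with only the arrays compared. In mixed culture they fell from 2903 to 1850 without mixed Bmpr1a-/- replicate 2, and array weights raised them to 4212. In mixed against separate Bmpr1a-/- cells they fell from 278 to 50 without mixed Bmpr1a-/- replicate 2, 66 without mixed Bmpr1a-/- replicate 3, 73 without separate Bmpr1a-/- replicate 2 and 130 without separate Bmpr1a-/- replicate 1, and array weights raised them to 453. In the interaction the 118 calls over all genes lay between 25 (without mixed wild-type replicate 2) and 132 when each array was left out, and the block gave 386 and array weights 199. The causes were not tested. With 3 arrays a group, small differences such as that of Trp53inp1 sit at the edge of what passes, and dim probe sets such as those of Foxo3, Fas and Gdf15 lie near the filter on low signal.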
